A study of Mus musculus with 4 samples.

Results

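Transcripts for subunits of the mitochondrial respiratory chain and ATP synthase were followed in mouse lung after inhalation of hexamethylene diisocyanate (HDI), a reactive chemical of polyurethane coatings. The members were all probe sets with a single gene symbol that starts with Nduf, Uqcr, Atp5, Cox4, Cox5, Cox6, Cox7 or Cox8, or that is Sdha, Sdhb, Sdhc, Sdhd, Cyc1 or Cycs. They comprised 101 of 12422 non-control probe sets and 73 of 8251 genes. By complex, 31 genes fell under complex I, 4 under complex II, 8 under complex III, 1 was cytochrome c, 15 fell under complex IV and 14 under complex V. A further 10 probe sets carried several symbols, at least 1 of them matching, and were not analysed here.

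The samples were 4 pools of whole lungs from C57BL/6J mice, each read on 1 Affymetrix array as total RNA. The groups were unexposed lungs (0 h in the title) and lungs collected 6 h, 18 h and 90 h after an HDI aerosol at 10 mg per cubic metre. The labels state neither how many mice a pool holds nor their age, exposure duration or hour of collection. With 1 array per group there was no spread between replicates and no test, and every difference below describes these arrays. Lung identity was clear from Sftpc, the surfactant protein of type II cells, which read 9874, 9435, 9136 and 9248 units in the unexposed, 6, 18 and 90 h pools, while Sftpd, another surfactant protein gene, was under the floor in all 4 pools.

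Levels are deposited intensities scaled to a common trimmed mean, in arbitrary units. Values under the 40th percentile of all values, 77.7 units, were set to that floor before log2 was taken. The brightest probe set on average stands for its gene, and a gene is compared where it lies above the floor on at least 1 of the 2 arrays. Differences are on the log2 scale. Where a gene had 2 probe sets without a suffix for possible cross-hybridisation, the log2 differences of such pairs scattered with a robust SD per probe set of 0.28 at 6 h, 0.28 at 18 h and 0.24 at 90 h, in 281, 276 and 274 genes. That scatter is the only measure of error here and leaves out differences between animals, pools and hybridisations. Bacterial spike-in controls (9 probe sets) differed from unexposed by medians of -0.11, 0.14 and 0.36 in log2 at 6, 18 and 90 h, and the 3' to 5' ratio of Gapdh ranged from 1.12 to 1.22.

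The respiratory chain lies in the inner mitochondrial membrane. Complexes I and II pass electrons from NADH and succinate to ubiquinone, complex III passes them to cytochrome c, and complex IV passes them to oxygen. Complexes I, III and IV pump protons, and complex V, the ATP synthase, uses the proton gradient to make ATP. Most subunits are encoded in the nucleus and assemble with a small set encoded by mitochondrial DNA. None of the genes listed for that mitochondrially encoded set was found among the named probe sets, so the values concern nuclear genes. In lung, respiratory chain transcripts come from all cell types, and in whole tissue fewer cells of a type and less RNA per cell cannot be told apart.

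Of the 73 genes, 64 were above the floor in at least 1 pool and 62 in all 4. The other 9 were at the floor throughout: Ndufa1, Ndufa12, Ndufc2 and Ndufs4 of complex I, the complex I assembly factors Ndufaf1 and Ndufaf4, Cox6b1, Cox8a and Atp5j2. Several of these encode standard parts of the complexes whose other members read well above the floor, so being at the floor here is a statement about a probe set and not about the gene's presence. Among the 101 probe sets 77 were above the floor in some pool. A suffix that marks possible cross-hybridisation was carried by 37 of the 101 probe sets, and by those that represent 19 of the 73 genes. These genes were Atp5c1, Atp5d, Atp5e, Atp5g1, Atp5g2, Atp5md, Cox4i1, Cox6a1, Cox6b1, Cox6b2, Cox6c, Cox8b, Ndufa3, Ndufa5, Ndufb2, Ndufb5, Sdhb, Uqcrb and Uqcrc2.

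Small differences in level set the order of the pools, and more members than genes in general were lowest at 6 h or highest at 18 h. Of the 62 genes above the floor in all 4 pools, 34 had their lowest level at 6 h (54.8%) and 34 their highest at 18 h (54.8%). Among all 5083 genes above the floor in all 4 pools these shares were 29.4% and 21.8%. Both held for 19 of the 62 members (30.6%) and for 8.18% of all genes. The complexes were not alike: in complex II 0 of 3 were lowest at 6 h, and in complex IV 4 of 12 were highest at 18 h. Conversely, 3 members were highest at 6 h and 4 lowest at 18 h. The order held under the other scalings: 33 to 38 members were highest at 18 h and 28 to 35 lowest at 6 h, against 22.0% to 26.2% and 25.6% to 30.7% of all genes.

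**Figure D1:**
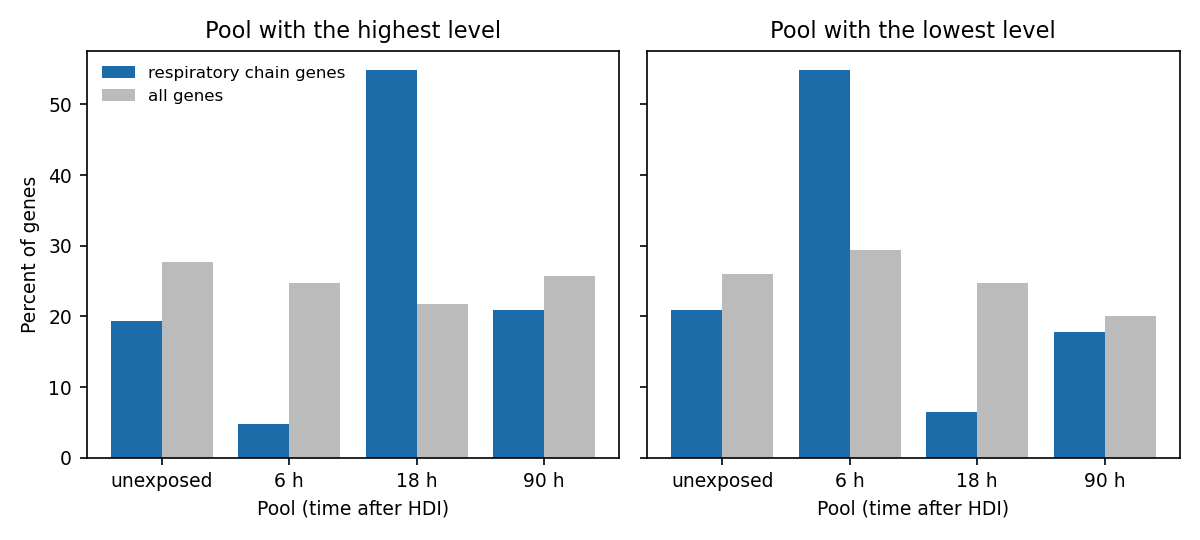
Bars give the percentage of genes whose highest (left) or lowest (right) level among the 4 pools was in the pool on the horizontal axis, for 62 respiratory chain genes (blue) and all 5083 genes (grey) above the floor in all 4 pools. The blue bars stand at 54.8% for the 18 h pool on the left and for the 6 h pool on the right.

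The comparison of 18 h with 6 h does not use the unexposed array and gave the largest shift. Of 64 compared members, 52 were above 0 and the median log2 difference was 0.29. Across all 5994 genes compared, 49.3% were above 0 and the median was -0.00. Among the 1970 genes at least as bright as the lower quartile of the members (259 units), 53.3% were above 0 and the median was 0.03. Past 1.5-fold, 2 members were higher and none lower, against 5.34% and 4.77% of all genes, so at that threshold the members did not stand apart. Past 2-fold, 1 was higher and none lower, against 1.18% and 1.17%. At 25% higher, or lower by the same factor (20%), a threshold chosen after the values were seen, 28 of 64 members were higher and 2 lower, against 17.3% and 15.1% of all genes. The median was 0.29 over the 46 members represented by a probe set without a suffix and 0.27 over the 18 with one. It lay between 0.22 and 0.32 under 10 alternatives of scaling, floor and probe set choice.

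**Figure D2:**
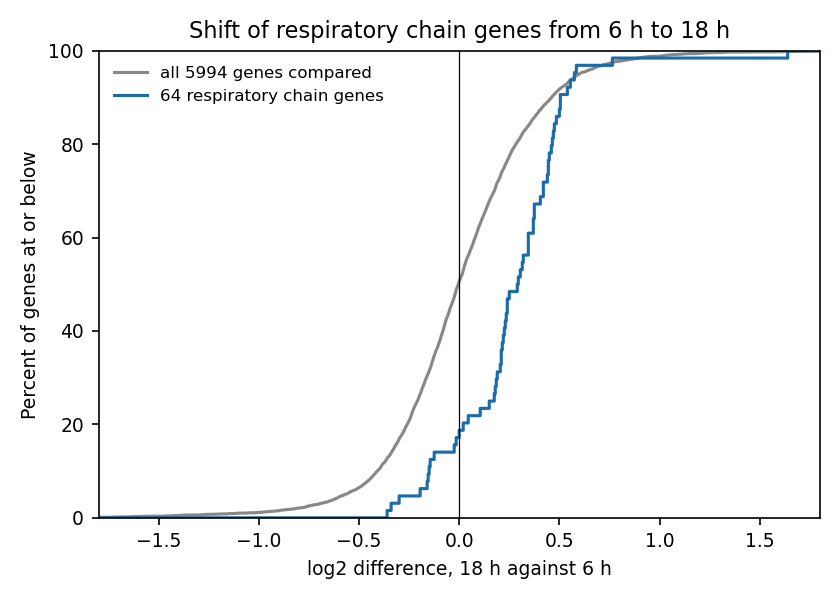
Cumulative percentage of genes (vertical axis) at or below a given log2 difference of the 18 h from the 6 h pool (horizontal axis), for 64 respiratory chain genes (blue steps) and all 5994 genes compared (grey). The blue steps lie to the right of the grey line over most of the range, with medians of 0.29 and -0.00. Above a log2 difference of 0.55 they cross it and stay close to it.

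Against unexposed lungs the members were slightly lower at 6 h and slightly higher at 18 h. At 6 h 18 of 64 members were above 0 and the median was -0.14, where 45.4% of 6044 genes were above 0 with a median of -0.04. At 18 h 42 of 64 were above 0 and the median was 0.14, where 48.1% of 6040 genes were above 0 with a median of -0.01. At 90 h 38 of 64 were above 0 and the median was 0.07, where 53.8% of 6062 genes were above 0 with a median of 0.03. These comparisons share the unexposed array. Left unscaled, the deposited values raised the median of all genes to 0.07, 0.12 and 0.16 at 6, 18 and 90 h and that of the members to -0.025, 0.29 and 0.21, so relative to all genes the members differed by -0.09, 0.17 and 0.04.

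Few members passed 1.5-fold against unexposed lungs, and their shares were at or under the background. At 6 h 1 member was higher and 2 were lower, against 7.15% and 6.06% of all genes. At 18 h 4 were higher and 1 lower, against 6.79% and 6.13%. At 90 h none was higher and 2 were lower, against 3.4% and 4.88%. At 18 h the split became 10 higher and 0 lower with unscaled values, under which 77.8% of all genes past 1.5-fold were higher, compared with 52.6% after scaling. At 6 h that share moved from 54.1% to 73.2% and at 90 h from 41.0% to 72.1%. The share of all genes that passed 1.5-fold with unscaled values is not given here. At the threshold of 25%, unscaled values put 29 of 64 members higher and 2 lower at 18 h, against 28.8% and 10.9% of all genes. Past 2-fold, Cox4i1 at 6 h was the only member called against unexposed lungs. Of all genes, 2.17% passed 2-fold upward and 1.51% downward at 6 h. The shares were 1.59% upward and 0.944% downward for 18 h, then 0.726% upward and 0.924% downward for 90 h. At the threshold of 25%, 3 members were higher and 12 lower at 6 h, against 17% and 19% of all genes. At 18 h 18 were higher and 4 lower, against 18.1% and 18.8%, and at 90 h 3 and 4, against 15.7% and 15%.

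**Figure D3:**
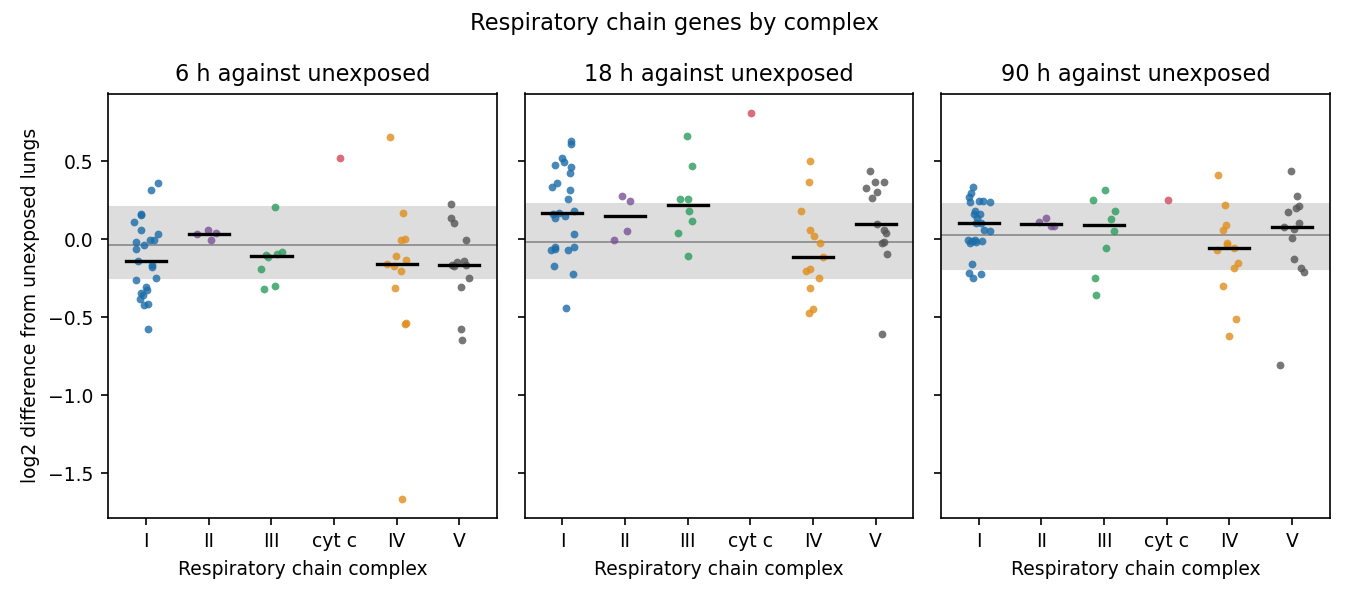
Log2 differences from unexposed lungs (vertical axis) at 6, 18 and 90 h for each compared gene (points), by complex (horizontal axis). Black bars are medians over genes, and the grey band and line are the quartiles and median of all genes compared. The medians of complexes I, III and V lie below 0 at 6 h and above 0 at 18 h, complex IV stays below 0 (with unscaled values complex III at 6 h and complex IV at 18 and 90 h lie above 0), and cytochrome c is the highest point at 18 h, at 0.81.

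Cycs, which encodes cytochrome c, the mobile carrier between complexes III and IV and a trigger of apoptosis when released into the cytosol, stood highest of the members at 18 h against unexposed lungs. It read 195, 280.3, 342 and 232 units in the unexposed, 6, 18 and 90 h pools. The unexposed pool was lowest, and the level was 1.44-fold higher at 6 h, 1.76-fold at 18 h and 1.19-fold at 90 h. Unlike most members it was already above unexposed at 6 h. It was measured by 1 probe set without a suffix.

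The promoter of Cycs is shown because this gene had the largest difference at 18 h, beside those of Cox6a1, a general subunit of complex IV with little difference, and Cox7a1, a subunit isoform of heart and skeletal muscle. Nuclear respiratory factor 1 (NRF-1), factors of the ETS family and the cAMP response factor CREB are known regulators of respiratory chain genes. Each line gives the 250 bases before the RefSeq gene start on the gene's strand, build GRCm38.p6, 5′ to 3′. Capitals mark matches on either strand to the palindromic NRF-1 consensus and its shorter form GCATGCGC, CCGGAAG (ETS), and TGACGTCA and TTACGTCA (cAMP response element). The shorter form lies within the consensus where the open middle base of the latter is T.
Cycs, chr6:50566570-50566819, minus strand: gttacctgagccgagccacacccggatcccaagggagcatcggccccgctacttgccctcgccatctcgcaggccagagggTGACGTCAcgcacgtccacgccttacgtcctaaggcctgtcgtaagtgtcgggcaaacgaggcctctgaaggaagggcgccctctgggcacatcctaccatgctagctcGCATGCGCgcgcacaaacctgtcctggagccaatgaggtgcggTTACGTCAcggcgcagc
Cox6a1, chr5:115348959-115349208, minus strand: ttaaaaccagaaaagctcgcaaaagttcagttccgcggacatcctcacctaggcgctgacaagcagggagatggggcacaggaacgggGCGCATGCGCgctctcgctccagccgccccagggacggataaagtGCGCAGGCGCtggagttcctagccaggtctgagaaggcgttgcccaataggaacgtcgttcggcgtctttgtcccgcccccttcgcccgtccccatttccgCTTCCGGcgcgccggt
Cox7a1, chr7:30183921-30184170, plus strand: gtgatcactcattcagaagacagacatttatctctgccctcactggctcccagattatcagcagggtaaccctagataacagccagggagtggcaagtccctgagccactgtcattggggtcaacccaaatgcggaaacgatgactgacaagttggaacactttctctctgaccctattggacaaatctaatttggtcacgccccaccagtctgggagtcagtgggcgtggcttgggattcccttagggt

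The Cycs window held the shorter NRF-1 form 60 to 53 bases before the start, and the 2 cAMP response forms 169 to 162 and 17 to 10 bases before it. The Cox6a1 window held 2 matches to the NRF-1 consensus and 1 to the ETS motif, and the Cox7a1 window held none of these letters. Promoter sequences were matched for 59 of the 73 genes by symbol. The NRF-1 consensus was found in 9 of 59 (15.3%), against 8.04% of the 6576 array genes with a promoter in the table, and the shorter form in 9 (15.3%) against 4.53%. The ETS motif was found in 12 (20.3%) against 13.6%, TGACGTCA in 3 (5.08%) against 2.69%, and TTACGTCA in 1, Cycs (1.69%), against 0.684%. A match is a description of these letters only.

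Complex I, which oxidises NADH, had a median log2 difference of -0.14 at 6 h, 0.17 at 18 h and 0.10 at 90 h over 25 compared genes, and of 0.37 from 6 h to 18 h. At 18 h Ndufc1 and Ndufb6, both accessory subunits of the membrane arm, were past 1.5-fold. Ndufc1 read 207, 232, 320.1 and 261 units in the 4 pools in time order, 1.55-fold higher at 18 h. Ndufb6 read 211, 272, 322 and 259, 1.53-fold higher at 18 h. Both were lowest in the unexposed pool and highest at 18 h. Both calls were lost with a pseudocount of 32, which gave log2 differences of 0.56 for Ndufc1 and 0.54 for Ndufb6, and that of Ndufb6 also with the mean over probe sets (0.31), its other probe set being under the floor. Ndufb9, another membrane arm subunit, followed the same order with 303, 378, 435 and 358 units.

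Other accessory subunits of complex I stood lowest at 6 h. Ndufa3 read 946, 635, 839.8 and 938 units, 1.49-fold lower at 6 h, by a probe set with a suffix, and its second probe set, near the floor, gave -0.24. Ndufb3 read 891, 668, 862 and 1058, and Ndufb10 read 455, 355, 434 and 448. In each the unexposed pool was above the 6 h pool by more than the later pools differed from unexposed. Ndufa6 read 225, 168, 166 and 193 units, as low at 18 h as at 6 h. Ndufv3, an accessory subunit of the NADH-oxidising module, read 179, 150.1, 170.4 and 216.

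A split of complex I by role was made after the values were seen. Core subunits carry the flavin and iron-sulphur clusters or otherwise form the conserved machinery, and accessory subunits surround them. The 4 core subunits among the compared members, Ndufv1, Ndufv2, Ndufs1 and Ndufs3, were all above 0 at 6 h, by 0.03 to 0.15, while 18 of 21 accessory subunits were below 0, with a median of -0.18. The core differences at 6 h were within the scatter of single probe sets. At 18 h the medians were 0.37 and 0.16. Ndufv2 read 569.9, 634, 805 and 673 units, and its second probe set gave 0.16, 0.37 and 0.20 against 0.15, 0.50 and 0.24. Ndufs1, which holds iron-sulphur clusters of the peripheral arm, varied least of complex I, at 257, 278, 248 and 257.

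Complex II, succinate dehydrogenase, which also serves the tricarboxylic acid cycle, varied little. Its median log2 differences were 0.04, 0.15 and 0.10 at 6, 18 and 90 h over 4 genes. Sdhc, a membrane anchor, read 519.9, 535, 631 and 551 units, and Sdhb, the iron-sulphur subunit, 444, 462, 526 and 489. The other anchor, Sdhd, read 439, 449, 455 and 466. Sdha, the flavin subunit, read 78.0, 77.8, 77.4 and 84.3, so close to the floor that its differences say nothing on level.

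Complex III, which passes electrons to cytochrome c, had medians of -0.11, 0.22 and 0.09 at 6, 18 and 90 h over 8 genes, with 7 of 8 below 0 at 6 h and 7 of 8 above 0 at 18 h. With unscaled values the 6 h median was 0.01. Uqcrq, a small subunit, read 705, 658, 1116 and 800.5 units. The 18 h pool stood apart from the others, 1.58-fold above unexposed and 1.70-fold above 6 h. Uqcr10, also a small subunit, read 526, 487, 730.3 and 654, again highest at 18 h, and Uqcrc1, a large core protein, 565, 534, 677 and 543.

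Other genes of complex III were less even. Uqcrc2, the other core protein, read 384, 309, 357 and 299.8 units by a probe set with a suffix, below unexposed in all exposed pools. Uqcrb read 288, 333, 326 and 343, above unexposed in all of them. Uqcrh, the hinge protein, read 757, 616, 779.8 and 827. For Cyc1, the heme-bearing cytochrome c1, the brighter probe set read 970.5, 908, 1055 and 818 units and the second 745, 655, 605 and 751. The 2 disagreed in direction at 18 h, with log2 differences of 0.12 and -0.30.

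Complex IV, cytochrome c oxidase, had a median below 0 at 18 h, unlike the other complexes. Its medians were -0.16, -0.11 and -0.05 at 6, 18 and 90 h over 13 genes, and with unscaled values the later medians were 0.03 and 0.09. Only 5 of 13 were above 0 at 18 h, and 7 of 13 from 6 h to 18 h. The muscle and testis isoforms Cox6a2, Cox7a1, Cox8b, Cox6b2 and Cox8c were all below 0 at 18 h, by -0.19 to -0.47. Of the remaining genes, Cox5a, Cox5b, Cox6a1, Cox6c and Cox7b were above 0, and Cox4i1, Cox7a2 and Cox7a2l below. Cox7a2 and Cox7a2l gave -0.11 and -0.31, and a second probe set of Cox6b2, close to the floor, gave 0.23. Neither the part of the muscle and testis isoforms in the low median nor the difference between complexes was tested.

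Cox4i1, the regulatory subunit that binds ATP, held the largest single difference among the members. It read 322, 102, 317 and 307 units, so the 6 h pool alone was low, 3.17-fold below unexposed, and 18 h was 3.12-fold above 6 h. The probe set carries a suffix for possible cross-hybridisation. Its other probe set, without a suffix, read 48.3, 69.3, 52.3 and 60.4 units, under the floor in all pools, so the low value rests on a single probe set. Averaging both gave -0.83 at 6 h.

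Cox5a, a matrix-side subunit, went the other way at 6 h. It read 96.8, 153, 137 and 129 units, 1.58-fold higher at 6 h, and all exposed pools lay above unexposed. The call at 6 h was lost with a higher floor, the 60th percentile (0.15), with the mean over probe sets (0.33) and with a pseudocount, and its other probe set was under the floor in all pools. Its partner Cox5b read 563, 563, 638 and 549.8, with no difference at 6 h.

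Several subunits of complex IV exist as isoforms, one general and others of muscle or testis. Among the general isoforms, Cox7a2 read 813, 561, 751 and 714 units, 1.45-fold lower at 6 h. Cox6a1 read 1407, 1222, 1425 and 1267 units. Cox6c, for which no isoform was measured, read 1632, 1314, 1699 and 1605. All of these were lowest at 6 h. Cox7a2l, which takes part in joining complexes III and IV, read 336, 301, 271 and 391, lowest at 18 h and highest at 90 h.

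The isoforms of heart and skeletal muscle were not highest at 18 h. Cox6a2 read 363, 361, 315 and 378 units. Cox7a1 read 95.5, 107, 83.6 and 76.8 units, under the floor at 90 h. Cox8b read 123, 109, 88.9 and 86.4. At 18 h these isoforms lay below both unexposed and 6 h. Cox8c, annotated as the testis isoform, read 248, 230.2, 182 and 161, 1.53-fold lower at 90 h, while its second probe set gave -0.03 there. That call was lost with unscaled values, a pseudocount and the mean over probe sets. Cox6b2, likewise of testis, read 305, 209, 257 and 294 by a probe set with a suffix. Another, close to the floor, read 52.0, 79.4, 91.1 and 87.8, with opposite signs at 6 and 18 h (0.03 and 0.23). A further probe set of Cox6b2 was above the floor only at 90 h. The probe set of its general partner Cox6b1 was at the floor.

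Muscle markers were mostly lower in the later pools. Of those compared, 11 of 14 were below unexposed at 18 h and 13 of 13 at 90 h, with Acta1, Tnnt2 and Ckmt2 above it at 18 h. Of 18 listed heart and skeletal muscle markers 17 were on the array, 2 of them at the floor throughout, and their summed level was 6893, 6578, 5900 and 4968 units in the 4 pools. Their median log2 difference was -0.12, -0.35 and -0.42 at 6, 18 and 90 h. Mb, the myoglobin gene, read 547, 639, 363 and 129, and Acta1, skeletal actin, 7.25, 611, 392 and 1.69. Cox8b was likewise lower at 18 and 90 h, whereas Cox6a2 was highest at 90 h and Cox7a1 at 6 h. The part of such tissue in the levels of the muscle isoforms was not tested. Fat markers were high at 6 h: the summed level of the 4 measured (Adipoq, Fabp4, Retn and Lpl) was 808, 1676, 917 and 819. Retn, at 86.7, 149, 151 and 148, stayed as high later. Of the brown fat markers, Ucp1 and Cidea were above the floor only at 6 h, at 140.5 and 83.2. Elovl3 read 34.6, 66.6, 71.6 and 77.7, highest at 90 h, and Ppargc1a was under the floor in all pools. The part of fat tissue in the 6 h values was not tested. The 3 measured B cell markers summed to 1652, 784, 1113 and 1137, lowest at 6 h, and the 4 macrophage markers to 553, 435, 506 and 883, highest at 90 h. The 2 red cell markers summed to 8451, 8690, 7870 and 6420, nearly all of it Hba-a1, while Alas2 read 256, 464, 361 and 215. The 5 lung epithelium markers on the array summed to 27864, 25076, 24329 and 23682. Of these, Sftpb was highest at 18 h (3603, 3699, 4398 and 3554) and Cyp2f2 lowest there (3715, 3008, 2386 and 2851). The part of these cells in the results was not tested either.

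Complex V, the ATP synthase, had medians of -0.17, 0.10 and 0.08 at 6, 18 and 90 h over 13 genes, and 12 of 13 were higher at 18 h than at 6 h. Atp5k, subunit e of the membrane sector, was the only one of them past 1.5-fold against unexposed lungs, and was low in every exposed pool. Atp5g2 was also below unexposed in all of these, with log2 differences of -0.57, -0.10 and -0.13. Atp5k read 227, 145, 149 and 130.2 units, 1.57-fold lower at 6 h, 1.52-fold at 18 h and 1.74-fold at 90 h, by 1 probe set without a suffix. The call at 6 h was lost with unscaled values (log2 difference -0.53) and a pseudocount (-0.55), and that at 18 h with these, median scaling and loess. The call at 90 h held under the alternatives run.

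Some stalk, head and membrane sector subunits of complex V were higher at 18 h than in unexposed lungs. Atp5pb, the peripheral stalk subunit b, read 221, 179, 265 and 254 units. Atp5o, another stalk subunit, read 422, 376, 545 and 442, and Atp5mpl, a small membrane sector protein, 469, 468, 636 and 568. All 3 were lowest at 6 h and highest at 18 h. Atp5a1, the alpha subunit of the catalytic head, read 843, 987, 1060.4 and 907, above unexposed in all exposed pools. Atp5e, the epsilon subunit, read 329.98, 278, 408 and 448, highest at 90 h. By contrast, Atp5c1, Atp5d and Atp5j differed little from unexposed at 18 h, by 0.10, 0.04 and 0.06 in log2.

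Subunits with several probe sets in complex V showed how far a single one can be trusted. For Atp5c1, the gamma subunit, the 2 probe sets gave log2 differences of 0.14 and -0.14 at 6 h. For Atp5d, the delta subunit, the 3 above the floor gave -0.20, 0.03 and -0.17 at 6 h and 0.03, -0.16 and 0.04 at 18 h. For Atp5l, subunit g, both gave -0.17 at 6 h, but -0.02 and 0.23 at 18 h. In complex I the 2 bright probe sets of Ndufb2 gave 0.34 and 0.38 at 18 h, while another, at 119.6 units in unexposed lungs, was under the floor in the exposed pools.

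The proton-conducting ring subunit is encoded by several genes for the same mature protein. Atp5g2 read 162, 109, 152 and 149 units, 1.49-fold lower at 6 h, by a probe set with a suffix. Atp5g1 read 89.6, 96.3, 88.0 and 78.7, close to the floor. Both genes had another probe set under the floor.

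**Figure D4:**
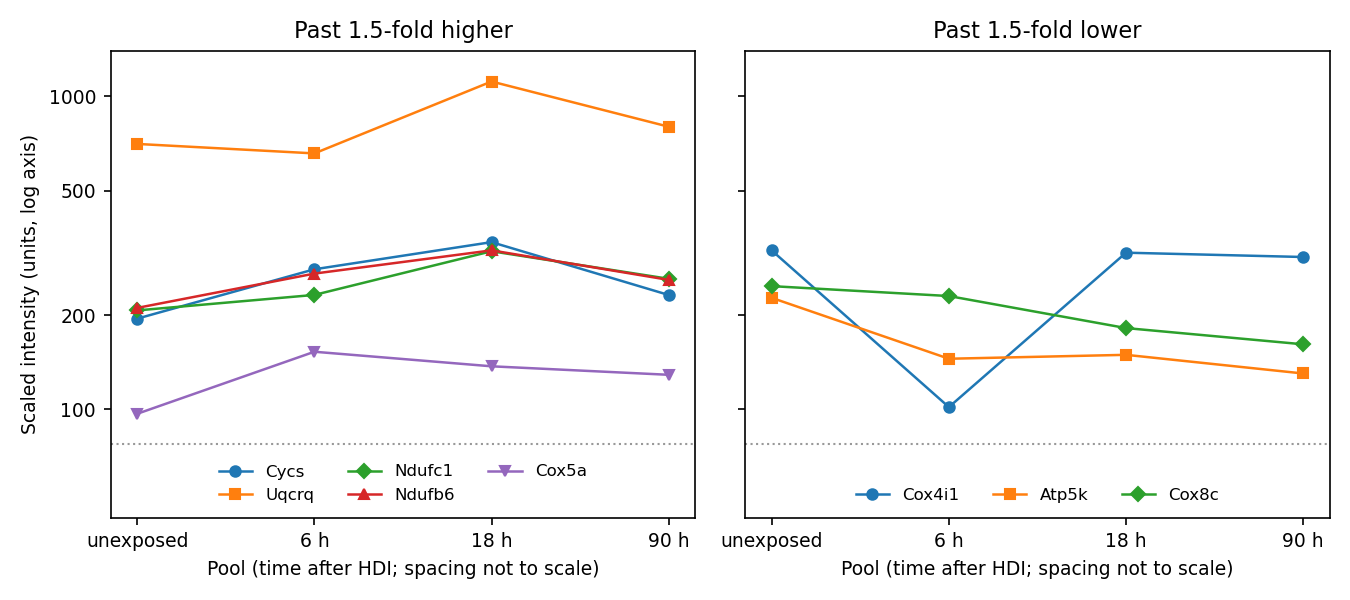
Scaled intensity in units (vertical log axis) of the members past 1.5-fold against unexposed lungs in any pool, by pool (horizontal axis), with those higher on the left and those lower on the right; the dotted line is the floor of 77.7 units. Cycs, Uqcrq, Ndufc1 and Ndufb6 peak at 18 h, Cox5a at 6 h, Cox4i1 is low in the 6 h pool alone and Atp5k in all exposed pools.

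Most members were lower at 90 h than at 18 h. Of 64 compared, 19 were above 0 and the median was -0.11, where 53.1% of 5977 genes were above 0 with a median of 0.02. No member passed 1.5-fold in either direction, against 3.68% higher and 3.97% lower of all genes, and none passed 2-fold, against 0.903% and 0.954%. At the threshold of 25%, 2 were higher and 7 lower, against 12.7% and 11.9%. Cycs was 1.48-fold lower at 90 h than at 18 h and Uqcrq 1.39-fold. Cox7a2l was 1.44-fold higher.

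Related gene lists gave the surroundings. Of 37 listed assembly factors, which insert cofactors or join subunits, 16 were on the array and 13 were compared at each time. At 6 h none was past 1.5-fold and the median was -0.23, and at 18 and 90 h 1 was lower and none higher, with medians of 0.09 and 0.06. Of all genes, 7.15% were past 1.5-fold higher and 6.06% lower at 6 h. At 18 h it was 6.79% and 6.13%, and at 90 h 3.4% and 4.88%, so 1 of 13 did not set the list apart. The lower assembly factor was Foxred1, of complex I, at 345, 263, 194 and 209 units, 1.78-fold lower at 18 h and 1.65-fold at 90 h. Uqcc2, a complex III assembly factor, read 140.2, 104, 208 and 184, and was 2.01-fold higher at 18 h than at 6 h. Cox17, a copper chaperone for complex IV, read 518, 391, 593 and 567. The last 2 were lowest at 6 h and highest at 18 h.

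Of 22 genes of the tricarboxylic acid cycle and pyruvate dehydrogenase, 20 were on the array. At 6 h 3 of 19 compared were past 1.5-fold higher and none lower, against 7.15% and 6.06% of all genes. The median was 0.10, so this list did not have the 6 h low of the respiratory chain members. Suclg1, a subunit of succinyl-CoA ligase, read 268, 418, 402 and 397 units. Dlst, of the oxoglutarate dehydrogenase complex, read 158, 243, 184 and 199 by a probe set with a suffix. Pdk4, a kinase that shuts pyruvate dehydrogenase, read 45.9, 254, 59.2 and 54.7, at least 3.27-fold higher at 6 h. At 18 h 1 of 18 was past 1.5-fold higher (Suclg1, by 0.59 in log2), against 6.79% of all genes, with a median of 0.21. At 90 h none was past it, against 3.4% higher and 4.88% lower of all genes, with a median of 0.08. The difference between the lists was not tested.

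Of 20 carriers and uncouplers of the inner or outer mitochondrial membrane 16 were on the array. At 6 h 1 of 14 was past 1.5-fold higher, the bound for Ucp1 (at least 1.81-fold), against 7.15% of all genes. At 18 h 1 of 14 was higher, against 6.79% of all genes. None was lower at any time, and the medians were -0.09, 0.10 and -0.03. The gene at 18 h was Slc25a5, which exchanges ADP for ATP across the inner membrane. It read 1004, 1250.2, 1802 and 1225 units, 1.79-fold higher at 18 h, the order seen in Cycs. The other adenine nucleotide carrier on the array, Slc25a4, read 865, 838, 941 and 845.

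Of 22 listed regulators of mitochondrial genes 17 were on the array. Hif1a, of the oxygen-sensing pathway, was past 1.5-fold higher at 6 h, at 334, 544, 494 and 437 units, by a probe set with a suffix. Ppard, a lipid-sensing nuclear receptor, was past 1.5-fold lower at 18 h, at 288, 253, 185 and 208. These were the only calls among 14 genes at 6 h and 13 at 18 h, and there were none among 13 at 90 h. The shares of all genes were 7.15% higher and 6.06% lower at 6 h. They were 6.79% and 6.13% at 18 h, and 3.4% and 4.88% at 90 h. The medians of the list were 0.06, -0.01 and 0.06. Ppargc1a, the coactivator of mitochondrial biogenesis, and Tfam, the mitochondrial DNA transcription factor, were under the floor in all 4 pools. Gabpa, an ETS factor that binds respiratory chain promoters, read 78.2, 99.8, 73.4 and 81.1.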

How the data were processed

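The values deposited by the authors are linear intensities, 1 for each probe set on each array. How they were extracted, background-corrected and scaled is not given in the sources used here. There were 12488 probe sets, 66 of them controls, and 102 to 184 exact zeros per array, with 3 zeros among the members. Of the non-control probe sets 10833 had 1 symbol in the platform annotation, 396 several and 1193 none listed. An update through the gene identifier changed 0 symbols. Arrays were scaled to the same mean after trimming 2% at each end (factors 0.970 to 1.07).

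With 1 array per group only differences were computed, at thresholds of 1.5-fold, 2-fold and, chosen after the values were seen, 25%. Alternatives were no scaling, median, quantile and cyclic loess scaling (limma 3.58.1), floors at the 25th and 60th percentile, a pseudocount of 32, the mean over probe sets, probe sets without a suffix, and genes above the floor on both arrays. Python 3.11.15 was used, and the code was tested on simulated data.

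The members and lists were chosen with earlier results of these data known. Genes named were members past 1.5-fold, the 3 largest differences per complex and time, the least variable per complex, complex IV and ring subunit isoforms, and genes with several probe sets; other members were added after their values were seen. A planned search for genes with a like profile was left out, since 4 arrays are too few for a correlation. Promoters came from RefSeq.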

Additional observations from a re-analysis of the deposited data

Results flagged for a closer look

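The median log2 difference of the 64 compared respiratory chain genes was of opposite sign at 6 h and at 18 h, -0.14 and 0.14 against the same unexposed array. The difference between these times was not tested by replication, since each is 1 array. Set side by side without the unexposed array, 52 of 64 genes were higher at 18 h.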

How the results depend on the processing

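No paired analysis was possible because each group is 1 array, and leaving out an array would remove a group. The number of arrays limits the precision, and members close to the floor have only compressed differences. No result changed from a called difference to one of the opposite sign. Several medians and counts of members did move, and these are given in the paragraphs that follow. Apart from them, 2085 of the values recomputed kept within the tolerance and 20 moved, all single genes.

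At 2-fold in place of 1.5-fold, 0 members passed upward and 1 downward at 6 h, 0 and 0 at 18 h, 0 lower at 90 h, and 1 higher from 6 h to 18 h. With unscaled values 2 members passed 1.5-fold upward and 1 downward at 6 h, 10 and 0 at 18 h, 1 downward at 90 h and 4 higher from 6 h to 18 h, and the member medians were -0.025, 0.29 and 0.21 at 6, 18 and 90 h. The complex medians were then -0.026, 0.32 and 0.25 for complex I, 0.15, 0.29 and 0.23 for complex II, 0.00545, 0.36 and 0.23 for complex III, -0.048, 0.030 and 0.090 for complex IV, and -0.054, 0.24 and 0.22 for complex V. Complex III at 6 h and complex IV at 18 and 90 h changed sign there, as all genes shifted upward. The counts of members past 1.5-fold with unscaled values have no share of all genes beside them.

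With median scaling, 0 members were lower at 18 h, 4 higher from 6 h to 18 h and 1 lower from 18 h to 90 h. With cyclic loess 0 were lower at 18 h. With the floor at the 60th percentile 0 were higher at 6 h. With a pseudocount of 32, 0 were higher and 1 lower at 6 h, 2 higher and 0 lower at 18 h, and 1 lower at 90 h. With the mean over probe sets 0 were higher at 6 h, 1 was lower at 90 h, and the median of complex IV at 18 h was -0.012. With probe sets without a suffix 1 was lower at 6 h and 1 higher from 6 h to 18 h, and the median of complex IV at 6 h was -0.055. By construction, a second probe set under the floor in all pools enters the mean over probe sets with a difference of 0. A pseudocount likewise makes the differences of genes above the floor smaller. Apart from these and the unscaled values, the cause of the moves was not tested.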

Other observations

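Fatty acid oxidation feeds electrons to the chain. Of 20 listed genes 16 were on the array, and the medians were 0.14, 0.14 and 0.07 at 6, 18 and 90 h, against -0.04, -0.01 and 0.03 for all genes compared. At 6 h 2 of 13 genes were past 1.5-fold higher and none lower, against 7.15% and 6.06% of all genes. Eci2, an enoyl-CoA isomerase, read 239, 387, 321 and 249 units, and Acadl, a long-chain acyl-CoA dehydrogenase, 197, 296, 193 and 174. Fat markers were also high at 6 h, with a summed level of 808 units in unexposed lungs and 1676 at 6 h, and Fabp4 2.74-fold higher, and their part in these values was not tested. No gene of the list was past 1.5-fold at 18 or 90 h.

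Genes that remove peroxide or superoxide near the chain were mixed. Of 10 listed 8 were on the array, with medians of -0.08, 0.23 and -0.04 at 6, 18 and 90 h. Past 1.5-fold, 1 was higher and 1 lower at 6 h, 2 higher at 18 h and 2 higher at 90 h. The shares of all genes were 7.15% higher and 6.06% lower at 6 h, 6.79% higher at 18 h and 3.4% higher at 90 h. Sod2, the mitochondrial superoxide dismutase, read 145, 178, 239.7 and 135 units, highest at 18 h. Gsr, glutathione reductase, read 148, 409, 324 and 233, highest at 6 h, while Txnrd2, the mitochondrial thioredoxin reductase, read 135, 78.6, 104 and 94.3 and was 1.72-fold lower at 6 h. Nnt, the proton-driven transhydrogenase in which C57BL/6J mice carry a deletion, read 93.3, 93.5, 101 and 146, so the 90 h pool alone was high, 1.57-fold above unexposed.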
